A study of Mus musculus with 2 samples.

Results

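Radial glia are the stem cells from which the adult dentate gyrus, a part of the hippocampus, makes new granule neurons, and they share much of their gene expression with astrocytes. A set of 10 genes known for these cells was followed here by gene symbol: Fabp7, Aldoc, Slc1a3, Slc1a2, Thrsp, Gja1, Mlc1, Ndrg2, Gfap and Aqp4. All 10 were found among 24319 named genes. RNA was measured in 2 libraries of sorted nuclei, 1 from Kmt2d +/mut mice and 1 from wild-type mice. Kmt2d encodes a methyltransferase that acts on lysine 4 of histone H3, a mark of active promoters and enhancers, and the series' design text gives the mutant allele as Kmt2d+/Bgeo. Mice of both genotypes were 8 weeks old and received 150 mg/kg of EdU, a thymidine analogue taken up during DNA synthesis, 16 h before the dentate gyrus was dissected. Each library pooled 500 EdU-carrying nuclei from 3 mice, so animals cannot be compared, and no difference below has a replicate check or a test between genotypes made here.

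Astrocytes clear glutamate and potassium from around synapses, are joined to each other by gap junctions, and meet blood vessels with endfeet rich in water channels. Radial glia in the dentate gyrus carry the same glutamate transporters and filament proteins, and their proliferation depends on fatty acid synthesis. After the level of the set, the genes are taken by role.

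Levels are in FPKM, fragments scaled to transcript length and library size, as the authors deposited them. The FPKM of a gene was above 0 for 5443 genes in the Kmt2d +/mut library and 5787 in the wild-type library. The steps between the lowest FPKM put the depth at about 219000 and 221000 fragments. Kmt2d itself (chr15:98831669-98871205) stood at 23.5 FPKM in Kmt2d +/mut nuclei and 34.7 FPKM in wild-type nuclei, a ratio of 0.678, and the authors' deposited table did not test it. Here and below, genes above 0 in both libraries are the 3182 that also reached an FPKM of 1 in either library. Of these, 37.9% were within 2-fold with 1 added to each FPKM, so a ratio of the size of that of Kmt2d does not check the labels.

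Among the 10 genes, 8 were above 0 in the Kmt2d +/mut library and 7 in the wild-type library. Their FPKM summed to 1431 in Kmt2d +/mut nuclei and 1076 in wild-type nuclei, or 0.367% and 0.243% of all FPKM in those libraries. Part of this gap rests on genes listed at 0 in 1 library. Mlc1 and Gja1 add 179 and 53.6 FPKM in Kmt2d +/mut nuclei only, and Gfap adds 54.6 FPKM in wild-type nuclei only. Fewer cells of a type and less RNA per cell cannot be told apart in such pooled libraries. In Kmt2d +/mut the order of levels was Fabp7, Aldoc, Slc1a3, Mlc1, Slc1a2, Thrsp, Ndrg2 and Gja1, with Gfap and Aqp4 listed at 0. In wild-type it was Thrsp, Aldoc, Fabp7, Slc1a3, Slc1a2, Ndrg2 and Gfap, with Gja1, Mlc1 and Aqp4 listed at 0. Among close neighbours, Thrsp, Ndrg2 and Gja1 stood at 65.8, 64.6 and 53.6 FPKM in Kmt2d +/mut nuclei, and with 1 library such an order has no spread to set it against. Aqp4 (chr18:15389394-15410982, minus strand) is thus the member with no value to compare. Of all genes past an FPKM of 1 in either library, 31.9% were listed at 0 in Kmt2d +/mut nuclei and 27.8% in wild-type nuclei, against 1 (Gfap) and 2 (Gja1 and Mlc1) of the 9 members past it. A listed 0 in Cuffdiff output may also stand for an estimate that failed, so no ratio of FPKM is given for such genes, and where they enter a log2 ratio with a pseudocount its size depends on that pseudocount.

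**Figure D1:**
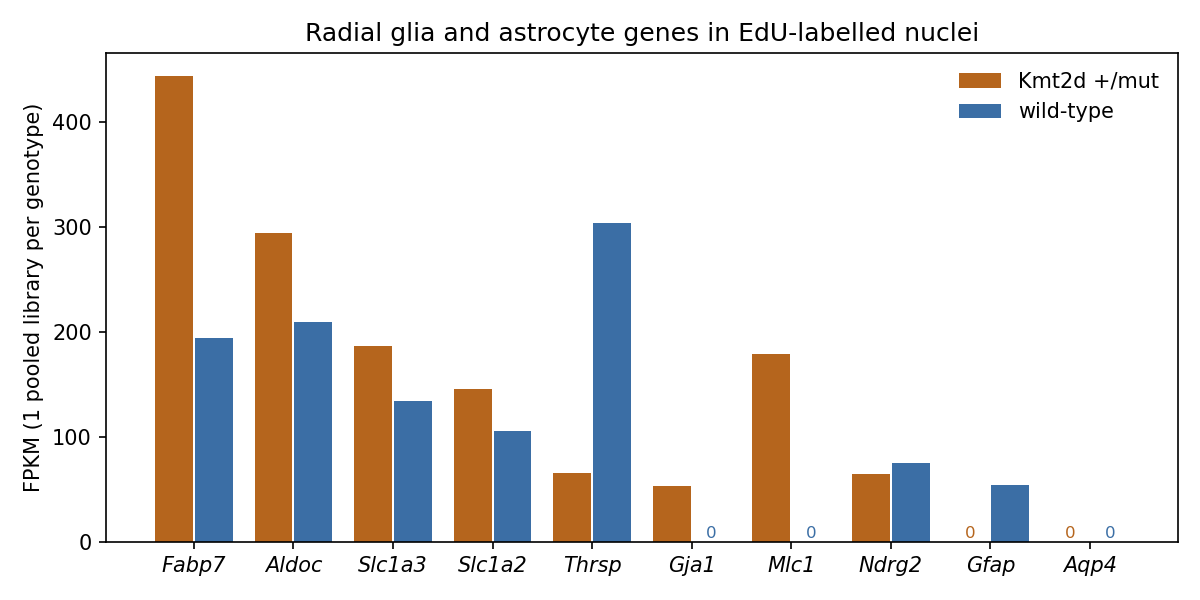
FPKM of the 10 genes in the Kmt2d +/mut library (left bar of each pair) and the wild-type library (right bar), with a 0 printed where a gene was listed at 0. Thrsp was the highest bar in wild-type at 303 FPKM and Fabp7 in Kmt2d +/mut at 443 FPKM.

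The glutamate transporters were read in both libraries, with nearly the same ratio between genotypes. Slc1a3 encodes GLAST, which takes up glutamate in radial glia and astrocytes (chr15:8634124-8710807, minus strand). It stood at 186 FPKM in Kmt2d +/mut nuclei and 134 FPKM in wild-type nuclei, 1.39 times the wild-type level. Slc1a2 encodes GLT-1, the main glutamate transporter of mature astrocytes (chr2:102658683-102790784, plus strand). It stood at 146 FPKM in Kmt2d +/mut nuclei and 105 FPKM in wild-type nuclei, a ratio of 1.38. Slc1a3 was thus 1.28 times Slc1a2 in Kmt2d +/mut nuclei and 1.27 times in wild-type nuclei, so the order and the spacing of the pair were alike in the libraries. An antisense gene, Gm13872, overlaps exons of Slc1a2 in the annotation, and no strand marking is described, so reads from that strand cannot be told apart.

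Aldoc encodes aldolase C, the glycolytic enzyme by which radial glia and astrocytes are often recognised (chr11:78323073-78327778, plus strand). Its level was 294 FPKM in Kmt2d +/mut nuclei and 209.6 FPKM in wild-type nuclei, a ratio of 1.40. It stood at 1.58 times Slc1a3 in Kmt2d +/mut nuclei and 1.56 times in wild-type nuclei. Aldoc, Slc1a3 and Slc1a2 therefore had ratios between genotypes of 1.40, 1.39 and 1.38. Of 3182 genes above 0 in both libraries, 3.21% had a ratio from 1.3 to 1.5, a range chosen after these values were seen. The counting intervals of Aldoc, Slc1a3 and Slc1a2, given below, all reach beyond this range, so nothing is drawn from the closeness of their ratios. Ndrg2, a member of the NDRG family that marks mature astrocytes (chr14:51905271-51913488, minus strand), was read at 64.6 FPKM in Kmt2d +/mut nuclei and 75.5 FPKM in wild-type nuclei, a ratio of 0.855. The authors' deposited table calls none of these 4 genes, with q-values of 0.79 for Aldoc, 0.848 for Slc1a3, 0.828 for Slc1a2 and 0.679 for Ndrg2.

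The lipid genes ran in opposite directions. Fabp7, the brain fatty acid binding protein of radial glia (chr10:57784923-57788450, plus strand), stood at 443 FPKM in Kmt2d +/mut nuclei and 194 FPKM in wild-type nuclei, a ratio of 2.28. It ranked 94 among the genes above 0 in Kmt2d +/mut nuclei and 528 in wild-type nuclei. Thrsp encodes Spot14, a regulator of fatty acid synthesis found in slowly dividing hippocampal stem cells (chr7:97412957-97417510, minus strand). It stood at 65.8 FPKM in Kmt2d +/mut nuclei and 303 FPKM in wild-type nuclei, a ratio of 0.217, and its rank was 1624 in Kmt2d +/mut nuclei and 282 in wild-type nuclei. Fabp7 was 6.73 times Thrsp in Kmt2d +/mut nuclei and 0.641 times in wild-type nuclei, so the order of these lipid genes was turned round between the libraries. The authors' deposited table tested both and calls neither, with q-values of 0.613 for Fabp7 and 0.612 for Thrsp.

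The 6 genes above 0 in both libraries allow an estimate of the counting error. With the shortest annotated transcript of each gene, Fabp7 rested on an estimated 58.5 fragments in Kmt2d +/mut nuclei and 26.0 in wild-type nuclei, and Thrsp on 15.5 and 72.2. The exact binomial 95% interval of the ratio ran from 1.40 to 3.74 for Fabp7 and from 0.112 to 0.371 for Thrsp. For Slc1a3 it ran from 1.08 to 1.77, for Aldoc from 1.01 to 1.92, for Slc1a2 from 0.908 to 2.12 and for Ndrg2 from 0.492 to 1.47. Slc1a2 has transcripts of 1957 to 11595 bp, and with the longest its interval was 1.18 to 1.63, so whether it spans 1 depends on the transcript assumed. These intervals cover counting error of fragments only. The cDNA was amplified over 22 cycles and the tagmented fragments over 20 more, with no molecular identifiers described, so fragments of 1 gene can come from few RNA molecules. Differences between mice and between library preparations are not in the intervals either.

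**Figure D2:**
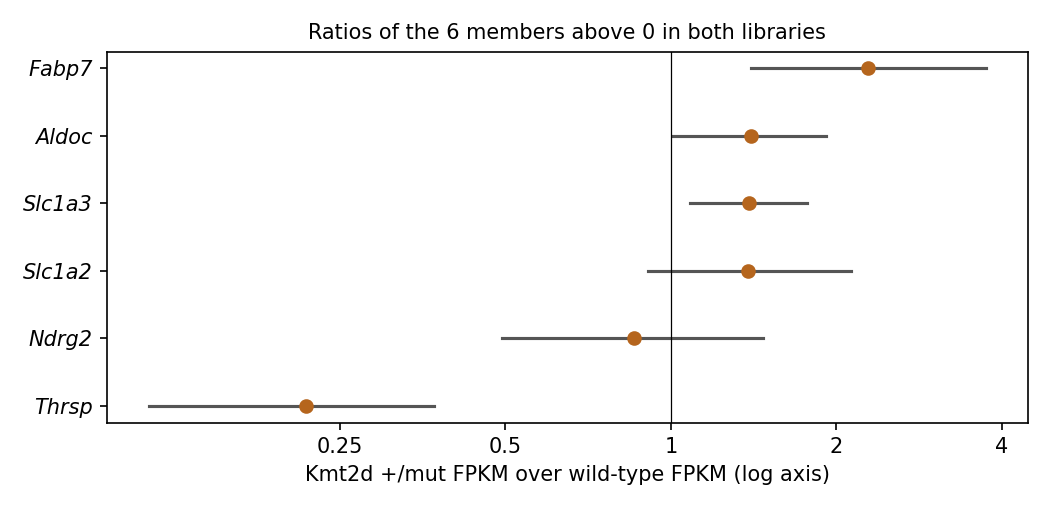
Ratio of Kmt2d +/mut FPKM to wild-type FPKM (points, log axis) for the 6 genes above 0 in both libraries, with exact binomial 95% intervals of the estimated fragments for the shortest annotated transcript (lines). Fabp7 lies above 1, Thrsp below 1, and the lines of Slc1a2 and Ndrg2 cross 1.

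The gap junction and membrane genes were read in a single library each. Gja1 encodes connexin 43, the main gap junction protein of astrocytes and radial glia (chr10:56377300-56390419, plus strand). It stood at 53.6 FPKM in Kmt2d +/mut nuclei, about 33.6 fragments, and was listed at 0 in wild-type nuclei. Mlc1 encodes a membrane protein of astrocyte endfeet that is mutated in a human leukodystrophy (chr15:88955884-88978553, minus strand). It stood at 179 FPKM in Kmt2d +/mut nuclei, about 101 fragments, and was listed at 0 in wild-type nuclei. Both carry a call of higher in Kmt2d +/mut nuclei in the authors' deposited table, each with a q-value of 0.029. That table calls 12.8% of the 3249 named genes it tested higher in Kmt2d +/mut nuclei and 14.3% lower, and 2 of the 9 tested genes of the set are called higher and 0 lower. Each of its 878 calls is of a gene listed at 0 in 1 library.

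Such readings were common at the levels of these genes. Among 883 genes at 50 to 100 FPKM in Kmt2d +/mut nuclei, the range of Gja1, 39.3% were listed at 0 in wild-type nuclei. Among 675 genes at 100 to 200 FPKM, the range of Mlc1, the share was 32.7%. In the other direction, 40.5% of 893 genes at 50 to 100 FPKM in wild-type were listed at 0 in Kmt2d +/mut nuclei. Gfap falls in that range. It encodes the glial fibrillary acidic protein, the intermediate filament of astrocytes and radial glia (chr11:102887336-102897200, minus strand). It was listed at 0 in Kmt2d +/mut nuclei and stood at 54.6 FPKM in wild-type nuclei, about 29.0 fragments for its shorter transcript. The authors' deposited table tested Gfap and did not call it, with a q-value of 0.368. Aqp4, the water channel of astrocyte endfeet, was listed at 0 in both libraries, as were 16280 named genes in all. Of these 2 defining astrocyte markers only Gfap had an FPKM above 0, in wild-type nuclei alone.

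The sequence before the transcription start is shown for the 5 genes with the widest readings, those listed at 0 in 1 library and the opposed lipid genes. The windows are the 250 bases before the annotated start, 5′ to 3′ on the gene's own strand, from RefSeq (GRCm38.p6), and capitals mark CCAAT boxes on either strand.
Gja1 (chr10:56377050-56377299, plus strand): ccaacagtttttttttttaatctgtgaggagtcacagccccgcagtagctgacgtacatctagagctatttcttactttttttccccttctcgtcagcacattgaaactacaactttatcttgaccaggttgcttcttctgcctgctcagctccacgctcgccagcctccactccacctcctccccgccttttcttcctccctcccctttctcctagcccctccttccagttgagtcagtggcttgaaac
Mlc1 (chr15:88978554-88978803, minus strand): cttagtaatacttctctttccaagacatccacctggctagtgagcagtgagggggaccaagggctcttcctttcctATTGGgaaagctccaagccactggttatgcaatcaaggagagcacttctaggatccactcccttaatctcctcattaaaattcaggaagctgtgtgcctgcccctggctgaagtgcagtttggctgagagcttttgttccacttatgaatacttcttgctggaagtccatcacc
Gfap (chr11:102897201-102897450, minus strand): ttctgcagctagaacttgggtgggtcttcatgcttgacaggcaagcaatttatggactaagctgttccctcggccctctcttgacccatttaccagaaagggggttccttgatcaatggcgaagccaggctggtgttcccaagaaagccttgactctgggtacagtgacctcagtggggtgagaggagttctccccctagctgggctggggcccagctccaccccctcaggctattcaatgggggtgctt
Fabp7 (chr10:57784673-57784922, plus strand): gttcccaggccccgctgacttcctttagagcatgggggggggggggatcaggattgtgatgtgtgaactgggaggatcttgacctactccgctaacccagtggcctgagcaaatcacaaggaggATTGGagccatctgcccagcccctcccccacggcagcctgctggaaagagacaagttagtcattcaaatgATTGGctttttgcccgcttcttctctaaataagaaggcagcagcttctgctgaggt
Thrsp (chr7:97417551-97417800, minus strand): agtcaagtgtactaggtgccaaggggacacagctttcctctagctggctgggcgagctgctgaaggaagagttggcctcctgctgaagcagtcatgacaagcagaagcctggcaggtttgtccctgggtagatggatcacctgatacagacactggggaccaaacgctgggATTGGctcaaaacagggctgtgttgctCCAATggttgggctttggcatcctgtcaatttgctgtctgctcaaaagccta

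Promoter windows were available for 9 of the 10 genes, in 12 windows since Aldoc and Ndrg2 have several starts, and those of Ndrg2 overlap in part. Fabp7 and Thrsp, whose levels ran in opposite directions, each held 2 CCAAT boxes, and Mlc1 held 1. CCAAT was found in 4 of the 12 windows and in 33.8% of all 32851 windows of this length. Other motifs were searched on both strands, none of which shares its letters with another in these windows. The letters TATAAA of the TATA box were in 2 of the 12 windows and 12.4% of all windows. The GC box, GGGCGG, was in 4 of the 12 and 32.7% of all. The RBPJ letters of Notch signalling, GTGGGAA, were in 1 of the 12 and 5.42% of all. The STAT letters, TTCNNNGAA, were in 2 of the 12 and 7.02% of all. The E-box letters CAGCTG were in 0 of the 12 and 13% of all. None of these other motifs was in the Gja1, Mlc1, Gfap, Fabp7 or Thrsp window. The Mlc1 window held 0 CpG dinucleotides, Gfap and Thrsp 2 each, Fabp7 4 and Gja1 6. The median was 3.5 over the 12 windows and 6 over all windows. These are matches of letters and not sites of binding.

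Differences between genotypes were also set on the scale of log2((Kmt2d +/mut FPKM + 1)/(wild-type FPKM + 1)) for genes that reached an FPKM of 1 in either library. The pseudocount of 1 understates the differences of low genes, and for a gene listed at 0 the value only reflects its level in the other library. Over this minimum stood 9 genes of the set, of which 3 were higher by 2-fold or more in Kmt2d +/mut nuclei (Fabp7, Gja1 and Mlc1), 2 lower by 2-fold or more (Thrsp and Gfap) and 4 within 2-fold. Over all 7903 genes past the minimum, 40.5% were higher by 2-fold or more and 44.3% lower by 2-fold or more. Of the 6 genes of the set above 0 in both libraries, 1 was higher by 2-fold or more and 1 lower by 2-fold or more, against 31.5% and 30.6% of all 3182 such genes. The median log2 ratio of the set was 0.47, and that of all genes was -0.23. Over genes above 0 in both libraries the medians were 0.47 for the set and 0.02 for all genes. With each library scaled to the same FPKM sum, the median was 0.65 for the set and -0.06 for all genes.

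**Figure D3:**
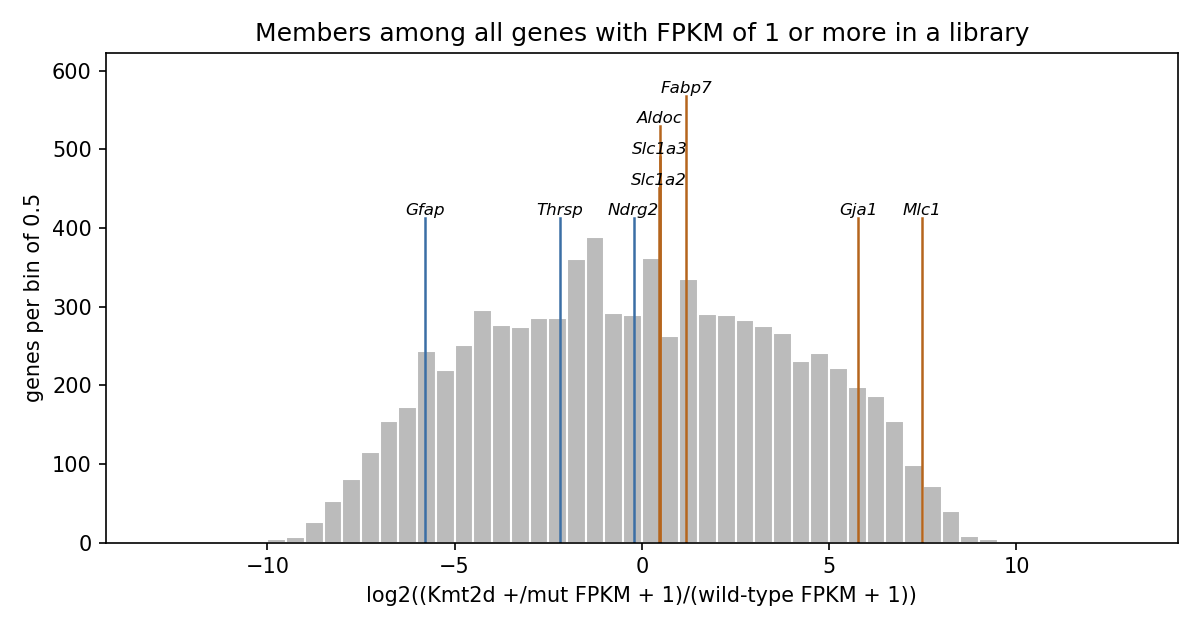
Number of genes by log2((Kmt2d +/mut FPKM + 1)/(wild-type FPKM + 1)) in bins of 0.5 over 7903 genes (grey), with a line for each of the 9 genes of the set past the minimum. Mlc1 at 7.49 and Gja1 at 5.77 lie in the right shoulder, Gfap at -5.80 in the left shoulder, and Aldoc, Slc1a3, Slc1a2 and Ndrg2 near the centre.

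Other genes of radial glia and astrocytes were grouped by role around the set, in a list of 103 genes with the set included. Of 72 past the minimum, 22 were higher by 2-fold or more in Kmt2d +/mut nuclei and 31 lower by 2-fold or more, against 40.5% and 44.3% of all genes past it. The authors' deposited table tested 42 of the list and calls 2 higher, Gja1 and Mlc1, and 5 lower, against 12.8% and 14.3% of all genes it tested. The list's median log2 ratio was -0.31, and -0.64 without the 10 genes, against -0.23 for all genes and 0.47 for the 10 genes. The same shares of all genes stand against the counts of each role group below, and no test between the groups was made. Counts over genes above 0 in both libraries stand against 31.5% higher and 30.6% lower by 2-fold or more of all 3182 such genes. The FPKM of the 103-gene list summed to 3.89% of the library in Kmt2d +/mut nuclei and 4.2% in wild-type nuclei. These sums, 15176 and 18571 FPKM, rest mostly on Cst3, at 6077 and 6242 FPKM, and Apoe, at 3316 and 4178 FPKM.

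Among the genes of glutamate and amino acid handling, 3 of 8 past the minimum were higher by 2-fold or more and 2 lower by 2-fold or more. Slc38a3, which exports glutamine from astrocytes, stood at 169 FPKM in Kmt2d +/mut nuclei and 18.1 FPKM in wild-type nuclei. Glul, the enzyme that turns glutamate into glutamine, was listed at 0 in Kmt2d +/mut nuclei and stood at 133 FPKM in wild-type nuclei. Gldc, of the glycine cleavage system, was likewise listed at 0 in Kmt2d +/mut nuclei and stood at 106 FPKM in wild-type nuclei. The authors' deposited table calls Glul and Gldc lower, with q-values of 0.0291 and 0.0318. Slc1a3 and Slc1a2 were thus read in both libraries, while Glul was listed at 0 in Kmt2d +/mut nuclei. Of 635 genes at 100 to 200 FPKM in wild-type nuclei, the range of Glul and Gldc, 38% were listed at 0 in Kmt2d +/mut nuclei. No contrast between uptake and the later enzyme is drawn from such a listed 0.

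Among the genes of gap junctions, water and ion balance, 4 of 9 were higher by 2-fold or more and 5 lower by 2-fold or more. Gjb6, connexin 30 and the other astrocyte connexin, was named after its values were seen. It stood at 69.7 FPKM in Kmt2d +/mut nuclei and was listed at 0 in wild-type nuclei, as Gja1 was, with no call and a q-value of 0.118 in the authors' deposited table. Kcnj10, the potassium channel Kir4.1 of astrocytes, was listed at 0 in Kmt2d +/mut nuclei and stood at 91.0 FPKM in wild-type nuclei, with a call of lower and a q-value of 0.029 in the authors' deposited table. Atp1b2, a subunit of the sodium pump, stood at 109 FPKM in Kmt2d +/mut nuclei and 298 FPKM in wild-type nuclei. Dtna, a dystrobrevin of the protein complex at astrocyte endfeet, stood at 36.7 FPKM in Kmt2d +/mut nuclei and 139 FPKM in wild-type nuclei. All 4 genes counted as higher (Gja1, Gjb6, Mlc1 and Hepacam) were listed at 0 in wild-type nuclei. Of the 4 genes of this group above 0 in both libraries, 0 were higher by 2-fold or more and 4 lower by 2-fold or more, against 31.5% and 30.6% of all such genes.

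Of 16 lipid and sterol genes, 4 were higher by 2-fold or more and 5 lower by 2-fold or more, and the authors' deposited table calls 0 of the 8 it tested. Apoe, the lipid carrier of astrocytes, was the most abundant at 3316 FPKM in Kmt2d +/mut nuclei and 4178 FPKM in wild-type nuclei. Mfge8, a secreted protein of astrocytes and neural stem cells, stood at 321 FPKM in Kmt2d +/mut nuclei and 371 FPKM in wild-type nuclei. Neither showed the spread of Fabp7 and Thrsp.

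Of 11 other metabolic and secreted genes, 0 were higher by 2-fold or more and 6 lower by 2-fold or more, and of the 7 above 0 in both libraries 2 were lower by 2-fold or more. The most abundant were near equal. The protease inhibitor gene Cst3 stood at 6077 FPKM in Kmt2d +/mut nuclei and 6242 FPKM in wild-type nuclei, Cpe at 651 and 709 FPKM, and Sparcl1, a secreted matrix protein, at 408 and 499 FPKM. Gstm1, a glutathione transferase, and Itih3 were listed at 0 in Kmt2d +/mut nuclei and stood at 224 and 133 FPKM in wild-type nuclei, with calls of lower and q-values of 0.029 in the authors' deposited table. Gstm1 has close paralogs, and its value is uncertain to that extent.

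Of the 4 intermediate filament genes, Nes and Synm were listed at 0 in both libraries. Vim, which is coexpressed with Gfap in radial glia, stood at 8.41 FPKM in Kmt2d +/mut nuclei, about 3.66 fragments, and 130 FPKM in wild-type nuclei, about 57.4 fragments. The authors' deposited table calls neither Vim nor Gfap.

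Of 13 transcription factor genes, 9 were higher by 2-fold or more and 3 lower by 2-fold or more, with a median log2 ratio of 1.82. Of the 6 above 0 in both libraries, 4 were higher by 2-fold or more and 1 lower by 2-fold or more. Lhx2, which holds back astrocyte formation in the developing hippocampus, stood at 128 FPKM in Kmt2d +/mut nuclei and 35.5 FPKM in wild-type nuclei. Nfib, a factor of gliogenesis, stood at 63.5 and 46.6 FPKM. Hes5, an effector of Notch signalling in stem cells, ran the other way at 42.8 FPKM in Kmt2d +/mut nuclei and 177 FPKM in wild-type nuclei. The authors' deposited table tested 4 of these genes and calls 0.

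Of 13 surface receptor and matrix genes, 2 were higher by 2-fold or more and 8 lower by 2-fold or more, with a median log2 ratio of -1.60. Of the 10 above 0 in both libraries, 1 was higher by 2-fold or more and 6 lower by 2-fold or more. The astrocyte receptor gene Gpr37l1 stood at 187 FPKM in Kmt2d +/mut nuclei and 746 FPKM in wild-type nuclei, the receptor phosphatase gene Ptprz1 at 287 and 588 FPKM, and F3, tissue factor, at 265 and 456 FPKM. The authors' deposited table calls 0 of the 8 it tested.

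**Figure D4:**
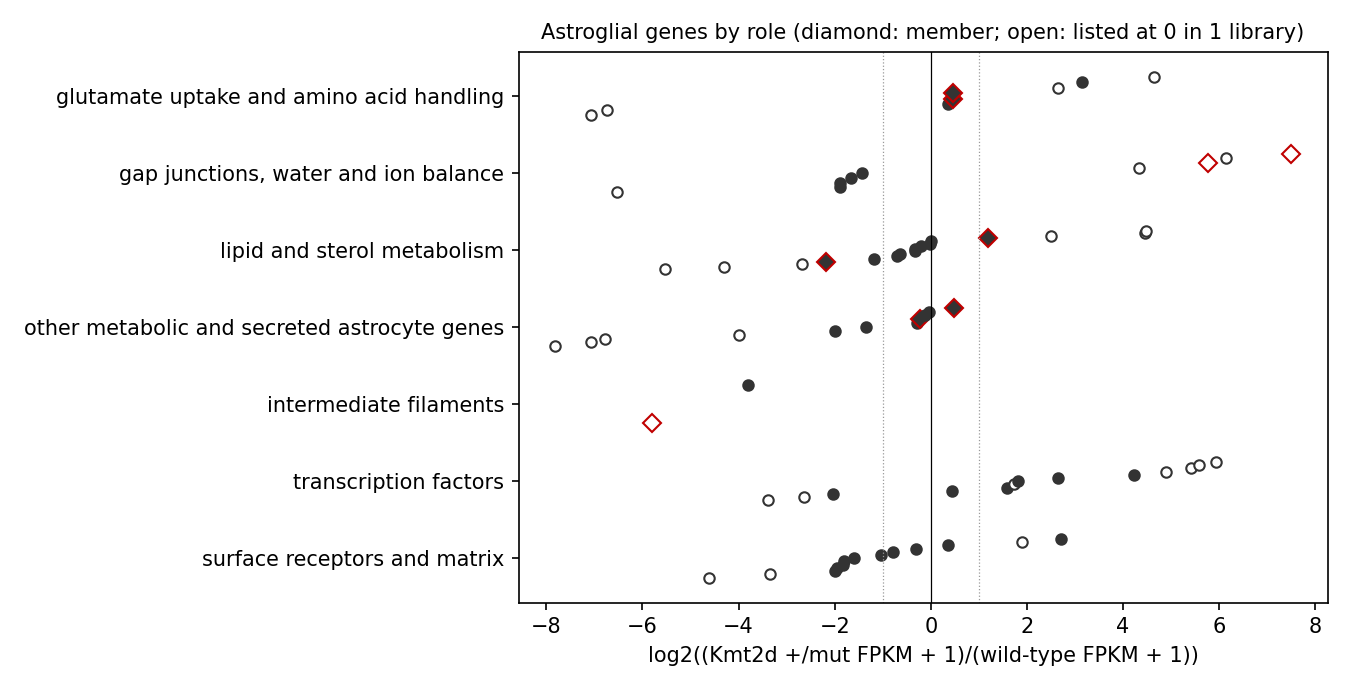
The log2 ratio of Kmt2d +/mut to wild-type, (FPKM + 1) in each, for genes of 7 role groups past the minimum, with diamonds for the 10-gene set, filled symbols for genes above 0 in both libraries and open symbols for genes listed at 0 in 1. Every group but intermediate filaments and the other metabolic and secreted genes spans values at least 2-fold to either side of 0.

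Markers of other cells were read in the same libraries. The 8 markers of oligodendrocyte precursors, which also divide in the adult brain, summed to 897 FPKM in Kmt2d +/mut nuclei and 870.3 FPKM in wild-type nuclei. Their leading genes were Pdgfra, Olig1 and Lhfpl3, with 231, 198 and 121 FPKM in Kmt2d +/mut nuclei and 266, 293 and 82.6 FPKM in wild-type nuclei. The 6 markers of myelinating oligodendrocytes used here summed to 422 FPKM in Kmt2d +/mut nuclei and 202 FPKM in wild-type nuclei. Mbp, Mag and Cldn11 led them, with 162, 80.2 and 109.6 FPKM in Kmt2d +/mut nuclei and 149 FPKM, 46.7 FPKM and a listed 0 in wild-type nuclei, while Mog was at 0 in both libraries. Mobp, like Cldn11, was listed at 0 in wild-type nuclei, and stood at 70.6 FPKM in Kmt2d +/mut nuclei, so most of the gap between the sums rests on genes listed at 0 in 1 library. Mbp and Mag, above 0 in both, were within 2-fold.

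The 9 microglial markers summed to 519 FPKM in Kmt2d +/mut nuclei and 434 FPKM in wild-type nuclei. Ctss, C1qa and Csf1r led them, with 238, 125 and 85.9 FPKM in Kmt2d +/mut nuclei and 372, a listed 0 and 19.6 FPKM in wild-type nuclei, while Cx3cr1 and Tmem119 were at 0 in both libraries. The 8 neuronal markers, led by Snap25, Map2 and Stmn2, summed to 912 FPKM in Kmt2d +/mut nuclei and 1195 FPKM in wild-type nuclei, but 3 of them were higher by 2-fold or more and 2 lower by 2-fold or more, with a median log2 ratio of 0.63. Snap25 and Stmn2 were lower, with 539 and 45.7 FPKM in Kmt2d +/mut nuclei and 685 and 157 FPKM in wild-type nuclei, whereas Map2 was higher, with 159 FPKM in Kmt2d +/mut nuclei and 124 FPKM in wild-type nuclei. Calb1 was listed at 0 in Kmt2d +/mut nuclei and stood at 178 FPKM in wild-type nuclei, the largest single difference behind the neuronal sums. Dcx, a marker of immature neurons, stood at 51.1 FPKM in Kmt2d +/mut nuclei and was listed at 0 in wild-type nuclei. The 9 intermediate progenitor markers summed to 293 FPKM in Kmt2d +/mut nuclei and 514 FPKM in wild-type nuclei, a gap about the size of Mfap4 alone. Of the 8 of these markers past the minimum, 4 were higher by 2-fold or more and 3 lower by 2-fold or more, with a median log2 ratio of 1.37. Against these counts and the neuronal ones stand 40.5% higher and 44.3% lower by 2-fold or more of all genes past the minimum. Mfap4, Igfbpl1 and Neurod1 led by mean FPKM, with a listed 0, 21.7 and 41.9 FPKM in Kmt2d +/mut nuclei and 217, 180 and 92.5 FPKM in wild-type nuclei. Insm1 and Eomes ran the other way, at 95.7 and 76.7 FPKM in Kmt2d +/mut nuclei against a listed 0 and 2.61 FPKM in wild-type nuclei. Eomes was named after its values were seen. Of these lists, Olig2, Cldn11, Dcx and Insm1 carry a call of higher in the authors' deposited table, and Calb1 and Mfap4 a call of lower. That table tested 7 oligodendrocyte precursor, 4 myelinating oligodendrocyte, 4 microglial, 6 neuronal and 5 intermediate progenitor markers. Over all genes it tested, 12.8% are called higher and 14.3% lower. The 3 markers of GABAergic neurons used here (Gad1, Gad2 and Slc32a1) and all 6 endothelial, 4 pericyte and 4 ependymal markers were listed at 0 in both libraries. The part of the other cell types in the values of the 10 genes was not tested.

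**Figure D5:**
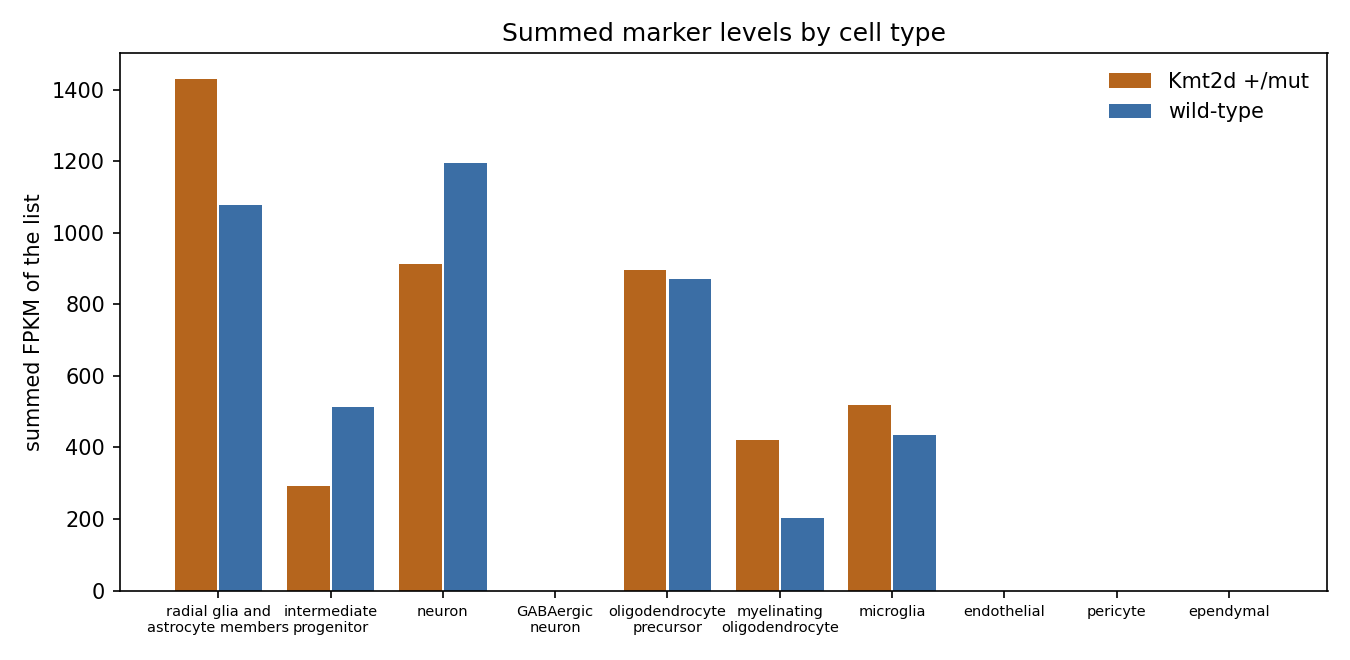
Summed FPKM of the 10 radial glia and astrocyte genes and of marker lists of 9 other cell types in Kmt2d +/mut nuclei (left bars) and wild-type nuclei (right bars). The myelinating oligodendrocyte list has the widest ratio among lists above 0, with 422 FPKM in Kmt2d +/mut nuclei and 202 FPKM in wild-type nuclei, where Cldn11 and Mobp were listed at 0, and the GABAergic, endothelial, pericyte and ependymal lists are at 0.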

How the data were processed

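Per the submitters' processing notes, reads were processed with HISAT2, Cuffnorm and Cuffdiff on build mm10. What versions, annotation and options they used is not given in the sources used here. Per the labels' protocols, libraries followed a modified Smart-seq2 protocol. The authors deposited FPKM per gene and pair of libraries, with the p-value and q-value of their own test, which are copied as deposited. The pair whose names fit the titles of the 2 samples was taken, and the other 4 libraries of the table were not used. Of its 24346 entries, 27 hold a date in place of a symbol and were left out.

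Values were described as FPKM and as log2 ratios with a pseudocount of 1 for genes that reached an FPKM of 1 in either library (Python 3.11.15, pandas 2.3.3, numpy 2.4.6, scipy 1.17.1). The genotypes were not tested against each other, as each has 1 library. Fragments were estimated from steps between low FPKM values in genes with 1 annotated transcript over 800 bp (GENCODE vM21, same build). With 200 bp taken off the length, 1 fragment was worth 4.58 FPKM per kb in Kmt2d +/mut nuclei and 4.52 in wild-type nuclei, and 76.8% of 82 and 76% of 100 low values lay within 0.1 of a whole number. This assumes that FPKM was scaled by the total of the same library. Coordinates are those of the deposited table, counted from 1.

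The genes and lists were chosen with earlier results of these data known. Named are all 10 genes, Kmt2d, the 3 genes of highest mean FPKM in each role group and each list of another cell type, and any gene of these called in the authors' deposited table. Of the lists, 3 genes are not reported here and were left out of every list's counts and sums.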

Additional observations from a re-analysis of the deposited data

How the results depend on the processing

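The median log2 ratio of the 10 genes stayed above 0 and that of the wider list below 0 under every alternative tried: pseudocounts of 0.1 and 10, a minimum FPKM of 5 or none, 2 other scalings, genes above 0 in both libraries, and genes the authors tested. For the 10 genes this says little, since the median of the 9 past the minimum is the value of Slc1a3 itself. A minimum FPKM of 5 or none and the tested genes leave out none of the 9, so the median of 0.47 cannot change. The median of all genes was below 0 too, at -0.06 to -0.25, under every alternative but genes above 0 in both libraries. With each library scaled to an FPKM sum of 1000000, the medians were 0.65 for the 10 genes and -0.14 for the wider list. With a minimum FPKM of 5 the wider list's median was -0.49, from fewer genes by construction. Over genes above 0 in both libraries, 1 of the 10 genes was higher by 2-fold or more and 1 lower by 2-fold or more, and of the wider list 7 and 16. The median of all genes was then 0.017, against -0.23, since genes listed at 0 are left out by construction. Over genes the authors tested, the wider list had 8 higher by 2-fold or more, 19 lower by 2-fold or more and a median of -0.67. For genes listed at 0 in 1 library the log2 ratio kept its direction and changed in size, with pseudocounts of 10 and 0.1, from 4.24 to 10.80 for Mlc1, from 2.67 to 9.07 for Gja1 and from -2.69 to -9.09 for Gfap. The other 38 values of the 6 summaries of the lists were within 1.5 times (counts) or 0.1 (medians) of those reported. No paired analysis was possible because each genotype has 1 library. With about 219000 and 221000 fragments, many genes rest on few fragments, and leaving out a library leaves no comparison.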

Other observations

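Several stem cell genes outside the rule for named genes, chosen after their values were seen, had wide readings. Sox2 and Gli3, transcription factors of neural stem cells, stood at 46.7 and 41.7 FPKM in Kmt2d +/mut nuclei against a listed 0 in wild-type nuclei for each, with no test in the authors' deposited table. Nfia stood at 48.9 FPKM in Kmt2d +/mut nuclei and 6.96 FPKM in wild-type nuclei, and the growth factor receptor gene Fgfr1 at 109 and 15.8 FPKM. In the other direction, Fgfr3, a receptor of astrocytes, stood at 18.2 FPKM in Kmt2d +/mut nuclei and 67.2 FPKM in wild-type nuclei, Notch2 at 11.5 and 42.9 FPKM, and S1pr1 at 55.0 and 215 FPKM. None of these 7 genes is called in the authors' deposited table, which did not test Nfia and Notch2 either.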
